A study of Homo sapiens with 208 samples.

Results

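PC9M2 is a gefitinib-resistant clone that was selected from the human lung adenocarcinoma line PC9 by long culture with gefitinib. PC9 carries an activating deletion in the kinase domain of EGFR, and gefitinib is a small molecule that blocks that kinase. The comparison described here is PC9M2 with gefitinib against PC9M2 without any treatment from 14 to 24 h, 1 array per treatment and hour, which gives 11 pairs and takes 22 of the 208 arrays of the series. The arrays were chosen by their labels alone: the line (written PC9GRM2 or PC9M2), the treatment (gefitinib, without EGF, against none) and the hour. All cultures had been starved for 48 h, gefitinib was used at 0.5 µM, and EGF, where given, at 100 ng/ml. Per the methods, the resistant line was picked as 1 clone from among clones without the gatekeeper mutation of EGFR and without MET amplification. The other arrays used are the same pair of courses from 0 to 13 h (15 pairs), PC9M2 with EGF and gefitinib against EGF alone from 14 to 24 h (11 pairs), and parental PC9 with gefitinib against no treatment from 14 to 24 h (11 pairs). Gefitinib was already present at 0 h, so that array of the gefitinib course is not an untreated baseline. The late minus early, EGF and PC9 comparisons below reuse the late PC9M2 differences, whereas the drug contrasts under EGF and in PC9 share no array with them. Hours stand in for replicates, and nothing in the labels says whether they were independent cultures, so every p-value below measures the spread between hours of 1 experiment.

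EGFR signals through the RAS-ERK cascade, which drives early response genes, ETS factors and their feedback inhibitors, and through PI3K and AKT, which keep FOXO transcription factors out of the nucleus. Inhibition of the kinase in lung adenocarcinoma cells with mutant EGFR is known to lower ERK output and proliferation genes and to raise FOXO targets and pro-death BCL2-family genes. In resistant cells the same receptor can be inhibited while other routes keep the cells alive, and Wnt signalling through β-catenin, with AXIN2 as its classical feedback target, is the route the study asked about.

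Values are log2 normalized probe intensities, so a difference of 1 is a 2-fold change. These are bulk cultures, in which fewer cells of a kind and less RNA per cell cannot be told apart. A gene was called when limma's test of the 11 paired differences gave a Benjamini-Hochberg adjusted p under 0.05, and 13257 genes were tested. Between 27408 and 33306 spots per array, controls included, were well above background, with medians of 29946 without and 29684 with gefitinib. Epithelial markers were bright in both groups (EPCAM between 15.03 and 15.61, KRT19 between 17.33 and 17.64). PTPRC of leukocytes, PDGFRB of fibroblasts and KDR and TEK of endothelium were well above background on no array of either group. PECAM1 and VWF, which also mark endothelium, were measured on every array and were higher with gefitinib by 1.35 ± 0.08 and 1.83 ± 0.08 (SE), and CD14, a monocyte marker, by 1.04 ± 0.10. The summed intensity of the 5 endothelial markers ranged from 331 to 509 without and from 873 to 1180 with gefitinib, and that of the 5 leukocyte markers from 188 to 294 and from 331 to 468; their part in the results was not tested. The 4 fibroblast markers summed to between 16.3 and 134 and overlapped between the groups. Of the lung markers NAPSA was present on every array (7.66 to 9.12), whereas SFTPB was well above background on 3 untreated and 5 gefitinib arrays. The differences between the courses at 14, 16, 17 and 18 h correlated across genes less with the mean of the other hours (0.782 to 0.833) than those at the other hours did (0.918 to 0.93).

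The late response covered most of the measured transcriptome. Of the 13257 genes, 4674 were higher with gefitinib (35.3%) and 5224 were lower (39.4%), together 74.7%. The gene list counts of the late response below can be read against these shares. Which direction was more frequent turned with the scaling, since 5043 were higher and 4854 lower when arrays were scaled to the 75th percentile. The typical change was small, with a median absolute difference of 0.42. Changes of at least 2-fold were called in 1313 genes that were higher (9.9%) and 973 that were lower (7.34%). In 1613 genes (12.2%) every gefitinib array lay above every untreated array, and in 1484 (11.2%) every one lay below. Of the 9898 called genes 93.3% had the same sign on each of the 4 days on which the arrays were scanned.

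The genes with the largest higher values under gefitinib included a death ligand, a pro-death BCL2-family gene, a receptor kinase and a Wnt feedback gene. TNFSF10 encodes TRAIL, the ligand of the death receptors. It ranged from 5.92 to 6.72 (median 6.33) without and from 11.12 to 11.77 (median 11.49) with gefitinib, with no overlap, a difference of 5.13 ± 0.04 (SE, n = 11; adjusted p = 4.54e-16). BMF, a BH3-only protein that neutralizes BCL2-family survival proteins, ranged from 5.09 to 6.25 (median 6.02) without and from 9.58 to 10.66 (median 10.27) with gefitinib, a difference of 4.37 ± 0.07 (adjusted p = 1.77e-13). Both genes were well separated at every hour. CSF1R, the receptor kinase for macrophage colony-stimulating factor, was higher by 4.36 ± 0.10 (adjusted p = 2.26e-12), and SELENOP, a secreted selenium carrier, by 4.19 ± 0.13. AXIN2, a scaffold of the β-catenin destruction complex and itself a target of β-catenin, ranged from 4.48 to 6.77 (median 5.79) without and from 9.66 to 10.61 (median 9.91) with gefitinib, a difference of 4.33 ± 0.17 (adjusted p = 1.30e-10). A second AXIN2 probe, well above background on 2 untreated and 10 gefitinib arrays, gave 1.65 and was higher at 8 of 11 hours.

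Several genes were below background without the drug. NEK3, a NIMA-related kinase, was well above background on none of the untreated arrays (2.13 to 3.48, median 2.61) and on every gefitinib array (7.96 to 8.57, median 8.25), which makes it at least 24.5-fold higher, the untreated side being set at the lowest signal that counted as above background on each array. Its other probes gave 4.25 and 1.25. On the same bound BMP3, a bone morphogenetic protein, was at least 8.28-fold and CIITA, the transactivator of MHC class II genes, at least 8.47-fold higher. KRT1 (a keratin of differentiated epidermis), ATP6V1B1 (a proton pump subunit), CCN5 (a matricellular protein) and CYP4B1 (a cytochrome P450 of lung) were higher by 5.05, 4.96, 4.88 and 4.47. CCDC180 (5.44) and RTN4RL1 (4.42) had a second probe that gave −0.26 and 0.07, so their change depends on the probe.

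Of the 14 largest falls named here, those of ADAM21, AGMO, SCG2 and the cytokine gene CSF2 came first. A survival factor and an immune checkpoint ligand were also among them. CSF2, which encodes GM-CSF, ranged from 6.38 to 7.61 (median 6.74) without and from 2.01 to 3.63 (median 2.92) with gefitinib and was lower by a log2 difference of −4.01 ± 0.14 (adjusted p = 7.42e-11). It was well above background on 1 of the 11 gefitinib arrays. BIRC3, an inhibitor of apoptosis and a target of NF-kB, ranged from 11.44 to 12.60 (median 12.35) without and from 8.22 to 9.21 (median 8.54) with gefitinib (−3.56 ± 0.20, adjusted p = 3.38e-09). CD274, which encodes the checkpoint ligand PD-L1, ranged from 6.88 to 7.82 (median 7.49) without and from 3.06 to 5.68 (median 3.84) with gefitinib (−3.36 ± 0.26, adjusted p = 6.97e-08). The groups did not overlap for CSF2, BIRC3 or CD274. ADAM21, a membrane-anchored metalloprotease-family protein, was at least 17.0-fold lower, since no gefitinib array measured it, and the lens crystallin gene CRYGC was at least 4.18-fold lower. AGMO (an ether lipid monooxygenase), SCG2 (a granin of secretory vesicles), CIB3 (a calcium-binding protein), ARNT2 (a bHLH-PAS factor), MARCHF4 (a ubiquitin ligase) and HSD3B1 (a steroid dehydrogenase) differed by −4.30, −4.16, −3.52, −3.39, −3.36 and −3.25. CA9, the hypoxia-induced carbonic anhydrase, differed by −3.27 ± 0.23, with overlapping groups. The RPS26 probe with the largest variance gave −3.57, but the other 3 probes of this ribosomal protein gene, all brighter, gave between 0.24 and 0.38.

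A difference between the courses can come from either of them. Levels of both courses were therefore set against the mean of the untreated arrays at 0 to 1 h. NEK3 started at 7.96, was at least 20.2-fold lower in the untreated course by 14 to 24 h, where it was below background, and stood at 0.28 above that start in the gefitinib course. TNFSF10 showed the opposite, with −0.33 in the untreated and 4.80 in the gefitinib course. At 0 to 1 h TNFSF10 was already 2.15 higher in the gefitinib course. AXIN2 moved in both courses, by −2.41 without and by 1.93 with gefitinib. BMF stood at −2.83 without and 1.53 with gefitinib. Its gefitinib course was already 2.47 higher at 0 to 1 h, so it did not rise further by 14 to 24 h. Among the genes that were lower, BIRC3 (2.67 against −0.89), CXCL1 (2.55 against −0.72), AGMO (3.62 against −0.68) and CIB3 (3.07 against −0.46) were higher than at the start without the drug and close to it with the drug. CSF2 had the reverse pattern, −1.03 without and −5.03 with gefitinib, and was already 4.14 lower in the gefitinib course at 0 to 1 h. Over the 1313 genes at least 2-fold higher, the untreated course had moved farther from the start than the gefitinib course in 49.2%, and over the 973 genes lower in 57.2%. These shifts are a description without a test, and the early and the late arrays were scanned on different days, so time and scan day cannot be told apart in them.

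**Figure D1:**
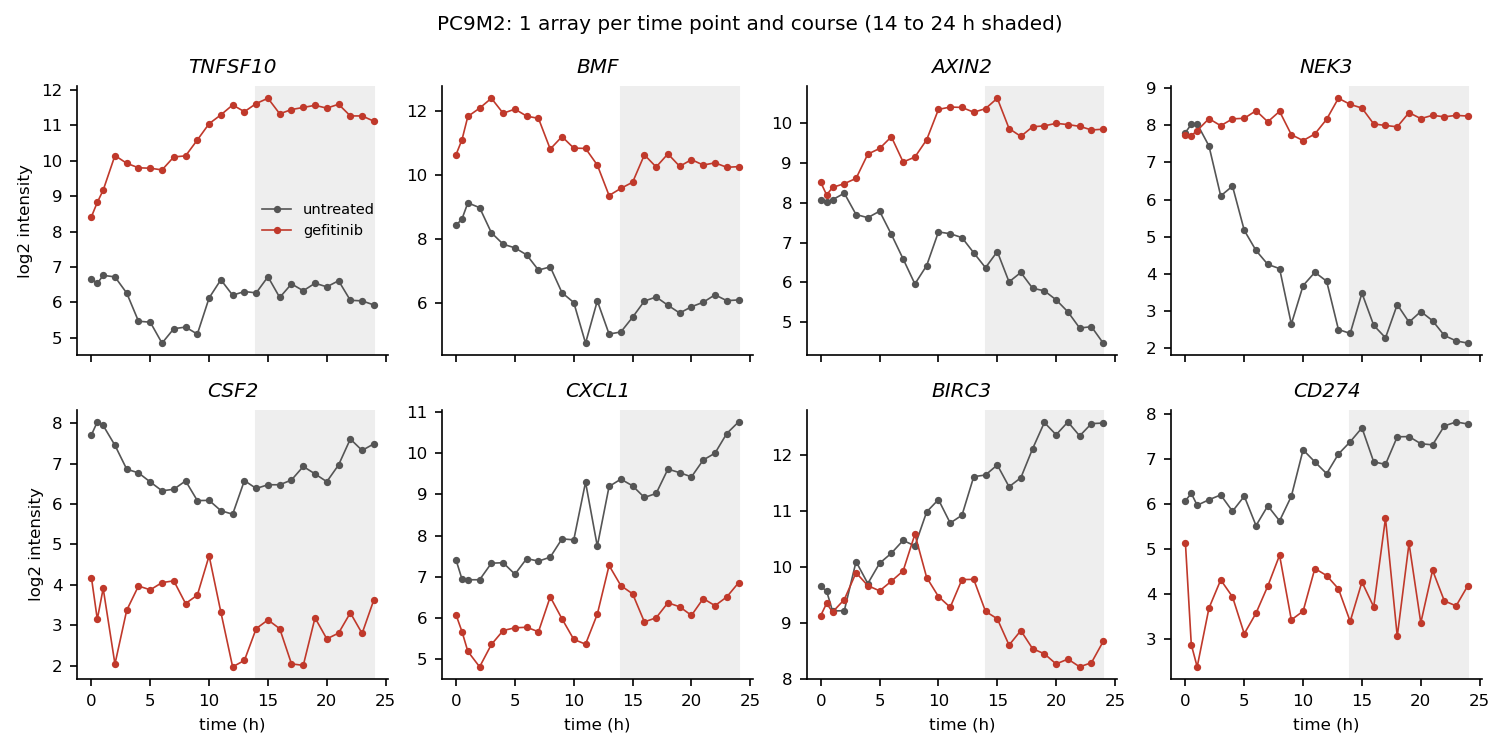
Log2 intensity (vertical axes, each scaled to its gene) against time in hours for 8 genes in untreated (grey) and gefitinib-treated (red) PC9M2, 1 array per point, with 14 to 24 h shaded. By 14 to 24 h NEK3 was at least 20.2-fold below its start in the untreated course, and TNFSF10 with gefitinib stood 4.80 above the untreated start. AXIN2 had moved in both courses, and BIRC3 and CXCL1 had climbed without the drug.

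Metabolic genes gave the largest shifts of whole groups. The glycolysis and hypoxia list holds 27 tested genes. Of these 24 were lower and 0 higher (39.4% and 35.3% of all genes), and 17 were at least 2-fold lower. The list's median difference was −1.25 against −0.04 over all genes, and −0.90 after the normexp background correction. PDK1, a pyruvate dehydrogenase kinase, ranged from 12.14 to 12.39 (median 12.28) without and from 9.37 to 9.78 (median 9.60) with gefitinib, a difference of −2.66 ± 0.04 (adjusted p = 1.77e-13). PFKP, the platelet phosphofructokinase, and P4HA1, a collagen prolyl hydroxylase induced by hypoxia, were lower by 2.00 and 1.96 on the log2 scale. BNIP3, a hypoxia-induced mitochondrial protein, differed by −2.21. The 3 members without a call were PFKFB3 (−0.36), EGLN3 (−0.10) and ALDOA (0.75, 95% interval −0.21 to 1.71). The median gene of this list had gained 1.1 since 0 to 1 h in the untreated course and stood at −0.23 with gefitinib.

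Sterol and lipid synthesis genes followed the same course. Of 28 tested members 27 were lower and 1 was higher, 15 of them at least 2-fold lower, with a median of −1.08. That median was −0.95 after normexp, −0.91 with each gene's brightest probe and −1.36 when arrays were scaled to the 75th percentile. LSS, which closes the sterol ring, ranged from 7.18 to 8.04 (median 7.71) without and from 5.45 to 6.06 (median 5.70) with gefitinib (−1.92 ± 0.11), without overlap. SC5D, a sterol desaturase, and IDI1, the isomerase of the isoprenoid units, differed by −1.89 and −1.69. The single member called higher, FADS2 (0.18 ± 0.05), reversed to −0.24 when all its probes were averaged. The list's median rose by 1.28 in the untreated course and by 0.20 in the gefitinib course, and in 27 of the 28 genes the untreated course had moved farther.

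**Figure D2:**
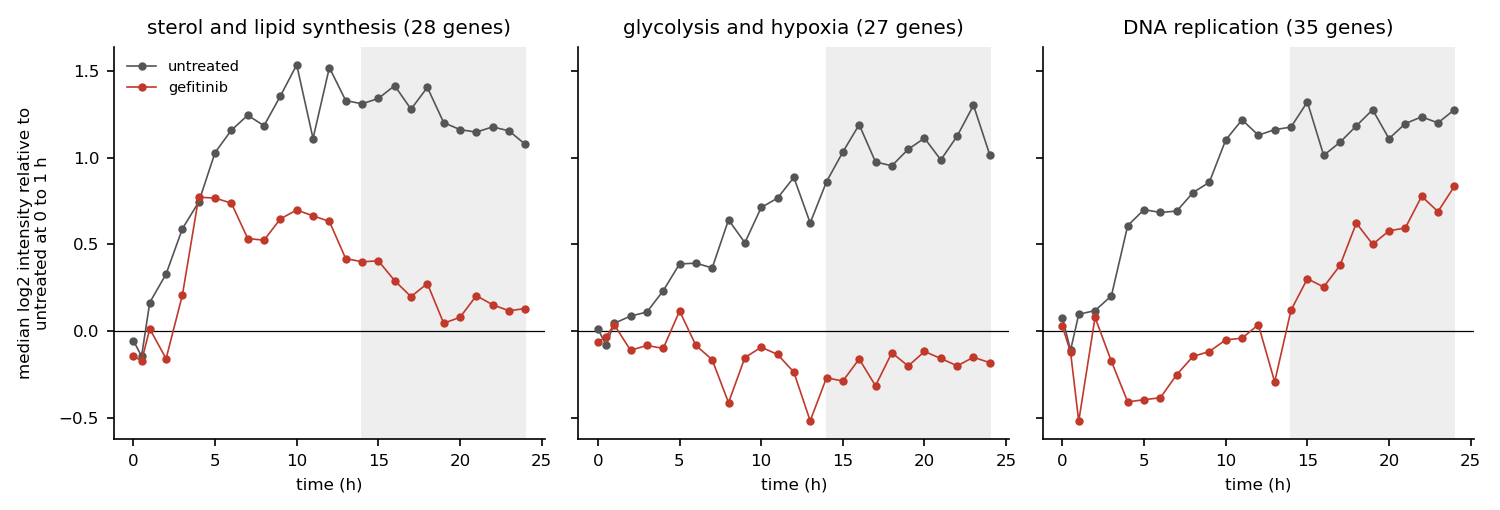
Median log2 intensity of the members of 3 gene lists relative to the untreated mean at 0 to 1 h (vertical axis) against time in hours, untreated in grey and gefitinib in red, 14 to 24 h shaded. All 3 untreated medians stand about 1 or more above the start in most of the shaded hours; in those hours, with gefitinib, sterol synthesis lay between 0.05 and 0.41, glycolysis between −0.32 and −0.12, and DNA replication climbed from 0.12 at 14 h to 0.83 at 24 h.

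The targets of ATF4, the factor of the amino acid response, were mostly lower: 20 of 28 were lower, 2 were higher and the median was −0.46. SLC7A11, the cystine transporter, differed by −2.25 ± 0.20 with overlapping groups, CTH, an enzyme of cysteine synthesis, by −1.54 and DDIT4, an inhibitor of mTORC1, by −1.41. AARS1, a tRNA synthetase, was higher by 0.76. ATF4 itself was not called (−0.05, 95% interval −0.23 to 0.14). Of 30 tested lysosome and autophagy genes 18 were higher and 6 lower (median 0.26), led by the protease CTSB (1.32) and the autophagy kinase ULK1 (1.29), with GLA, a lysosomal galactosidase, at −1.46.

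Proliferation genes were lower as groups, but by modest amounts. Of 35 DNA replication genes 30 were lower and 2 higher, with a median of −0.64. CCNE1, the cyclin of the entry into S phase, ranged from 14.32 to 14.96 (median 14.50) without and from 12.33 to 12.87 (median 12.55) with gefitinib (−1.99 ± 0.04, adjusted p = 1.02e-12). RRM2, a subunit of ribonucleotide reductase, ranged from 9.58 to 11.01 (median 10.11) without and from 7.57 to 9.22 (median 8.61) with gefitinib (−1.82 ± 0.11). Neither gene's groups overlapped. ORC1 of the origin recognition complex differed by −1.60 and RFC3 of the clamp loader by −1.32, whereas E2F2, an E2F factor, was higher by 1.09 with the probe used and −0.28 with its second probe. MCM5 (0.04), MCM3 (−0.13) and CDC6 (−0.67, 95% interval −1.45 to 0.12) were not called. Of 34 mitosis genes 26 were lower and 5 higher with a median of −0.61, or −0.35 after the normexp background correction. MAD2L1 and TTK, both of the spindle checkpoint, differed by −1.30 and −1.15, and NEK2, PLK1 and BIRC5 were higher by 0.52, 0.51 and 0.44.

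Ribosome biogenesis followed: 31 of 36 members were lower, 4 were higher and the median was −0.67 (−0.53 after normexp). UTP15 and PNO1, assembly factors of the small subunit, differed by −1.32 and −1.19, and LYAR, a nucleolar protein, by −1.13. UBTF, the factor of ribosomal RNA transcription, was higher by 1.54 and WDR75, a small-subunit processome protein, by 1.12. Among 17 G1 cyclins, kinases and inhibitors 7 were lower (41.2%) and 5 higher (29.4%), against 39.4% and 35.3% of all genes. Their median was −0.08 (0.05 when arrays were scaled to the 75th percentile). CDKN1C (p57) was higher by 1.70 ± 0.07 and CDK6 by 1.53, while CDKN1A (p21) and CDKN2D (p19) differed by −1.46 and −1.59. CDKN1B (p27), a classical FOXO target, was not called (0.10, 95% interval −0.07 to 0.28).

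**Figure D3:**
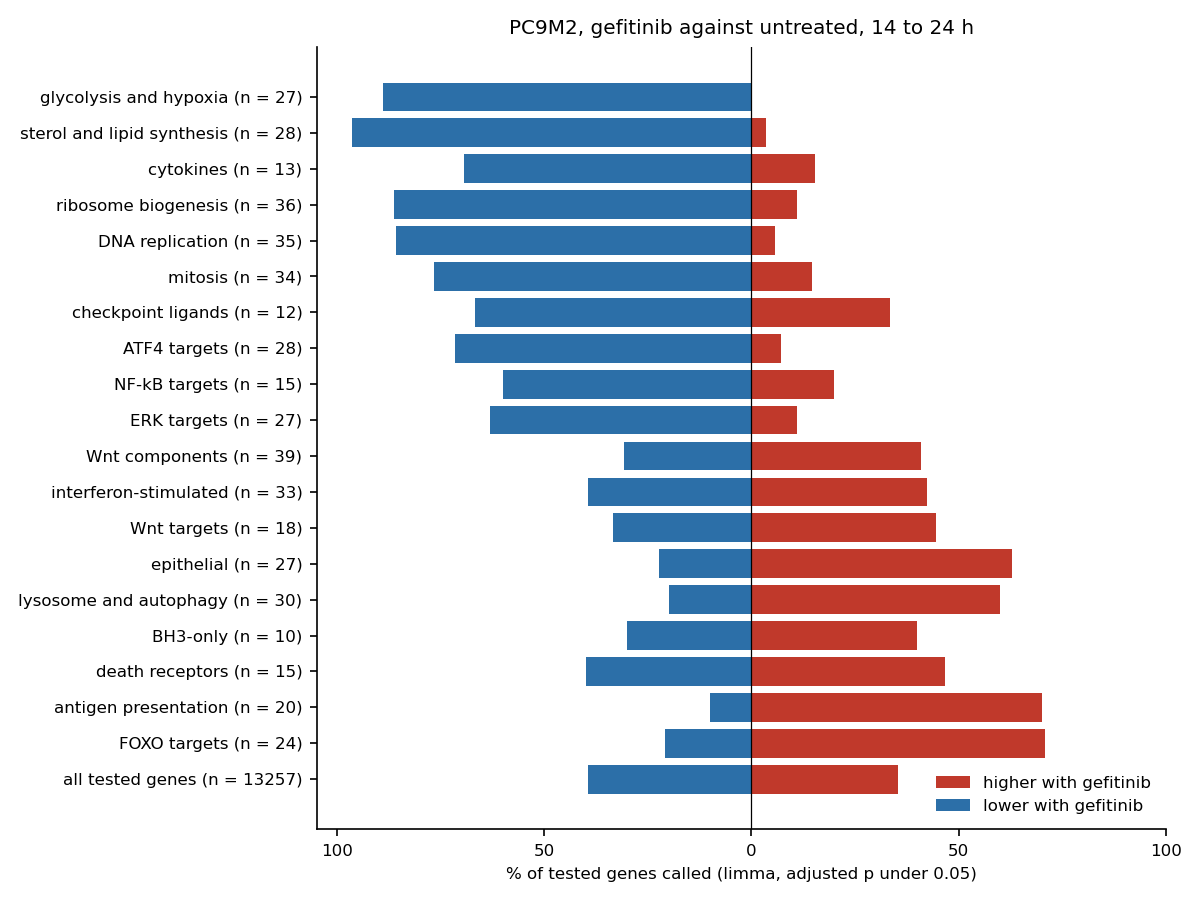
Percentage of the tested members of each gene list that were called higher (red, right) or lower (blue, left) with gefitinib at 14 to 24 h in PC9M2, sorted by the list's median, with all 13257 tested genes at the bottom. Sterol synthesis, glycolysis, ribosome biogenesis and DNA replication reach 85 to 96% lower against 39.4% of all genes, and FOXO targets and antigen presentation about 70% higher against 35.3%.

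EGFR itself differed by −0.15 ± 0.05 (adjusted p = 0.0215, with overlapping groups), a call that was lost without the pairing of hours. Its relatives and ligands differed by more. ERBB3, the kinase-poor partner that couples the family to PI3K, ranged from 9.29 to 10.20 (median 9.83) without and from 10.81 to 11.96 (median 11.51) with gefitinib, a difference of 1.65 ± 0.06 (adjusted p = 1.18e-10). ERBB2 was higher by 1.52 ± 0.07. HBEGF, a ligand of EGFR, ranged from 9.27 to 10.81 (median 10.22) without and from 6.77 to 7.66 (median 7.50) with gefitinib (−2.73 ± 0.13, adjusted p = 6.02e-10), and the ligands AREG and TGFA differed by −1.60 and −1.31. CBL, the ubiquitin ligase of EGFR, was lower with both of its probes, by −0.78 with the bright one and by at least 2.92-fold with the dim one that was used. In all, 9 of 15 tested receptors, ligands and regulators were lower and 4 higher, with a median of −0.18.

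ERK targets were mostly lower. Of 27 tested members 17 were lower and 3 higher, against 39.4% and 35.3% of all genes, 6 were at least 2-fold lower (7.34% of all genes), and the median was −0.36. FOSL1, an AP-1 subunit whose gene follows sustained ERK activity, differed by −2.89 ± 0.12 and PHLDA1 by −1.71 (from −1.83 to −0.77 with its other 3 probes). DUSP6, the phosphatase that inactivates ERK, ranged from 13.25 to 13.71 (median 13.40) without and from 11.67 to 12.14 (median 11.86) with gefitinib (−1.60 ± 0.04, adjusted p = 5.76e-12). IER3 (−2.23 ± 0.82, adjusted p = 0.0259) lost its call when scan day was a random block. The early response genes EGR1 (0.57), FOSB (0.33) and FOS (0.32) were called higher, each with overlapping groups, and the call for FOS was lost when any single hour out of 18, 20, 21, 22, 23 and 24 h was left out.

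The same ERK targets showed the widest gap to the parental line. In PC9, 23 of the 27 were lower with gefitinib with a median of −2.87, and the difference between the lines (PC9M2 minus PC9) was called higher for 22 and lower for 0, against 17.6% higher over all genes. DUSP6 differed by −7.82 ± 0.19 in PC9 and −1.60 in PC9M2, a gap of 6.23 ± 0.20 (adjusted p = 1.33e-09). ETV5, an ETS factor induced by ERK, was above background on no gefitinib array of PC9 and at least 41.8-fold lower there, against −0.85 in PC9M2. EGR1 gave −4.51 ± 0.21 in PC9 and 0.57 in PC9M2, so the sign differed. DUSP5, SPHK1 and EGR2 were not called in PC9M2 (0.00, 0.04 and 0.17).

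**Figure D4:**
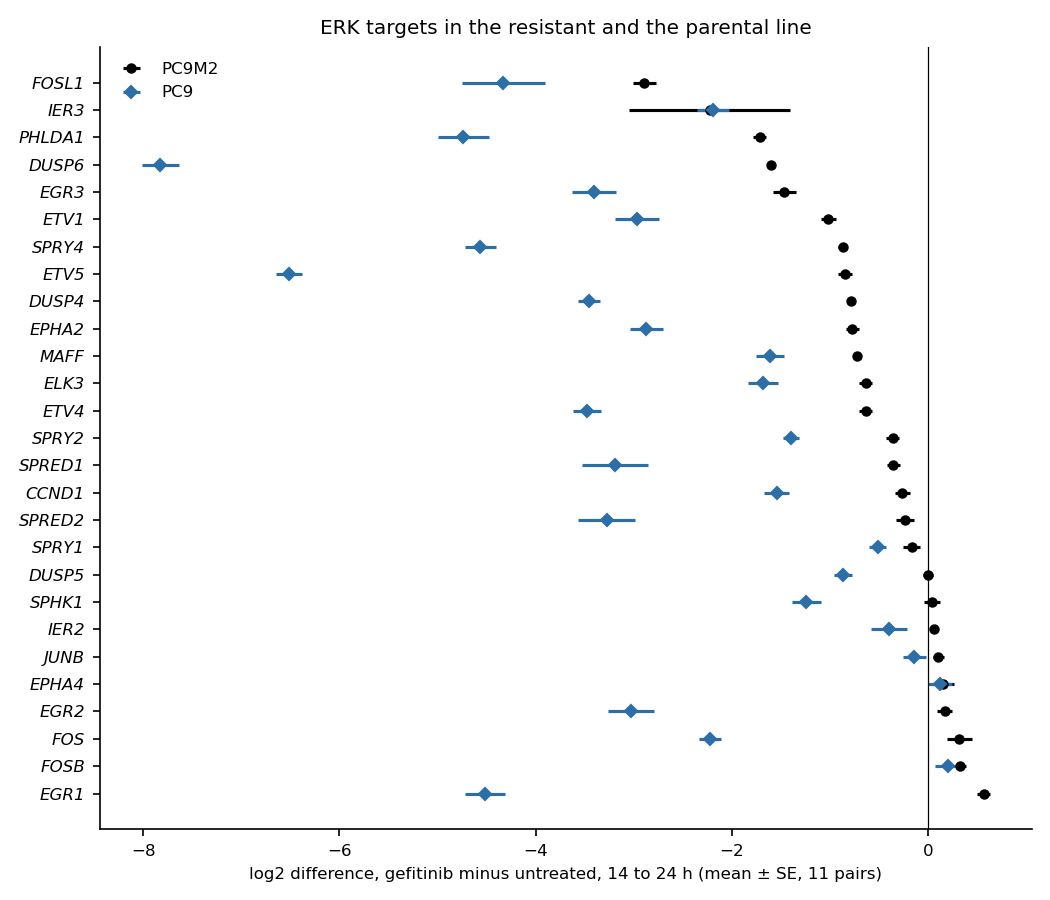
Log2 difference, gefitinib minus untreated, at 14 to 24 h (horizontal axis, mean ± SE of 11 pairs) for the 27 tested ERK targets in PC9M2 (black) and PC9 (blue). Most PC9 points lie between −1 and −8, whereas the PC9M2 points lie between −2.89 and 0.57, and EGR1 lies on opposite sides of 0. For ETV5 in PC9 the plotted mean depends on gefitinib values below background.

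FOXO targets were mostly higher, with 17 of 24 higher and 5 lower and a median of 0.45 (0.20 after normexp, 0.67 with each gene's brightest probe). PIK3IP1, an inhibitor of PI3K, ranged from 4.50 to 6.01 (median 5.34) without and from 8.53 to 9.40 (median 8.86) with gefitinib, a difference of 3.58 ± 0.09 (adjusted p = 3.79e-12). PDK4, which restrains pyruvate oxidation, was higher by 2.74, BCL6, a transcriptional repressor, by 2.04, and SESN3, a sestrin dim without the drug, was at least 1.77-fold higher. GADD45A, a stress gene, differed by −1.95. The FOXO genes FOXO4 and FOXO1 were higher by 1.05 and 0.85. Among 27 PI3K and AKT components 11 were higher (40.7%) and 13 lower (48.1%), against 35.3% and 39.4% of all genes. Their median was −0.23 (−0.02 after normexp).

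Genes of cell death moved in both directions, as did all tested genes, of which 35.3% were higher and 39.4% lower. A split between higher and lower members therefore does not by itself set these lists apart. Of 10 BH3-only genes 4 were higher and 3 lower, with a median of 0.27 (0.09 after normexp). Next to BMF, HRK was higher by 2.04 ± 0.05 with the probe used and 0.32 with its second probe, BCL2L11 (BIM) by 0.89 ± 0.16 (from 0.20 to 0.95 with its other 3 probes) with overlapping groups and BAD by 0.75. BIK and the mitophagy gene BNIP3L differed by −1.23 and −1.27, and BID (−0.01), PMAIP1 (0.16) and BBC3 (0.38) were not called. Of 7 survival and effector genes BCL2L1 (−0.86), MCL1 (−0.64) and BAK1 (−0.34) were lower and BCL2 (0.51) and BCL2L2 (0.12) higher; the MCL1 sign reversed to 0.07 with its brightest probe. Of 15 death receptor pathway genes 7 were higher and 6 lower, with a median of 0.27 that fell to −0.01 or 0 under other filters and floors. The receptors of TNFSF10 were lower: TNFRSF10A ranged from 8.87 to 9.66 (median 9.29) without and from 6.83 to 7.70 (median 7.15) with gefitinib (−2.02 ± 0.13), TNFRSF10B differed by −1.41 ± 0.05, and TNFRSF10D, a decoy receptor, by −2.56 ± 0.43 with overlapping groups. The decoy TNFRSF10C was not called (0.27 ± 0.14). FAS differed by −1.69 ± 0.12, and CASP8, the initiator caspase, was not called (−0.01, 95% interval −0.24 to 0.22).

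Inflammatory genes were lower with gefitinib. The 4 promoters shown here carry recognition motifs of NF-kB or AP-1, factors that induce such genes. They were taken from the called list members that hold each motif and changed most, with genes of a single chromosome left out. CSF2 and BIRC3, which changed more, are not among them. Each sequence is the 250 bases before the transcription start in RefSeq's GRCh38.p14, read towards the gene, with the motif in capitals; both strands were searched, so the capitals may be the reverse complement.
CXCL1: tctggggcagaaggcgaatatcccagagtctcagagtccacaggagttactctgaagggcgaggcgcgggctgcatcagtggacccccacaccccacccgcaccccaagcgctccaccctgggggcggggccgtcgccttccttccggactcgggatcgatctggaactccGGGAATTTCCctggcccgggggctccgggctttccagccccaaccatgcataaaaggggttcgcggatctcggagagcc
CXCL8: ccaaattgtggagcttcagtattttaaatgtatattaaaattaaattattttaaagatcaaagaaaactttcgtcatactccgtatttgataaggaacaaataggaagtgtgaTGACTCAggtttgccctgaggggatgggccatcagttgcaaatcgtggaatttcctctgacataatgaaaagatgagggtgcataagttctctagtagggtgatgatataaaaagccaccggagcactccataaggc
TNFAIP3: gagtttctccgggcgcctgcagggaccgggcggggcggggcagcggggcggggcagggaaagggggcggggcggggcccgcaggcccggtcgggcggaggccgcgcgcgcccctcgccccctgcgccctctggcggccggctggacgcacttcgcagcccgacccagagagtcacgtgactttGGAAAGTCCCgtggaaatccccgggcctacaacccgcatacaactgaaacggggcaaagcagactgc
IL23A: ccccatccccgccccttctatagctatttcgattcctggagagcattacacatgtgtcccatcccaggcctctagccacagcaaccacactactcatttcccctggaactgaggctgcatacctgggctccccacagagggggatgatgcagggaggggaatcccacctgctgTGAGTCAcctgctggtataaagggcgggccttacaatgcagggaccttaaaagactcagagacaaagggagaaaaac
They lie at chr4:73869143-73869392 (CXCL1, plus strand), chr4:73740319-73740568 (CXCL8, plus strand), chr6:137867009-137867258 (TNFAIP3, plus strand) and chr12:56338634-56338883 (IL23A, plus strand). The NF-kB letters (GGGA, any base, TTTCC) were found in 3 of 10 cytokine promoters and in 5 of 13 promoters of the NF-kB target list, against 0.546% of 27305 promoters. The AP-1 letters (TGANTCA, N being any base) were found in 4 of 10 cytokine promoters against 6.6% of all. A match is only a description of the sequence.

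Of 13 tested cytokine genes 9 were lower and 2 higher, with a median of −1.0 that shrank to −0.20 after normexp. CXCL1, a neutrophil chemokine with the NF-kB letters printed above, ranged from 8.92 to 10.75 (median 9.52) without and from 5.91 to 6.86 (median 6.37) with gefitinib, a difference of −3.27 ± 0.13 (adjusted p = 1.49e-10). IL23A, a subunit of interleukin 23 with AP-1 letters in its promoter, ranged from 11.58 to 12.91 (median 12.16) without and from 9.20 to 10.23 (median 9.74) with gefitinib (−2.36 ± 0.14). CXCL8 was above background on 7 untreated and 0 gefitinib arrays and was at least 2.39-fold lower. IL1RN, the antagonist of the interleukin 1 receptor, was higher by 1.82 and IL1B by 0.77. Another 10 cytokine genes were too dim to be tested.

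Of 15 NF-kB targets and subunits 9 were lower and 3 higher, with a median of −0.38. TNFAIP3, the ubiquitin-editing inhibitor of NF-kB also called A20, ranged from 5.76 to 6.83 (median 6.10) without and from 2.66 to 4.64 (median 3.84) with gefitinib (−2.37 ± 0.16), and RELB, an NF-kB subunit, differed by −1.5. BCL3, an atypical IkB protein, was higher by 1.5, and ICAM1 was not called (0.04). Among checkpoint and costimulatory ligands 8 of 12 were lower, including CD274 and TNFSF4 (−1.34), and 4 were higher, led by VTCN1 (2.15) and VSIR (1.55); the median of −0.54 became −0.18 after normexp. Antigen presentation genes were higher in 14 of 20, by a median of 0.42 (0.23 after normexp). HLA-DMB, which loads peptides onto MHC class II, was at least 3.75-fold higher, NLRC5, the transactivator of class I genes, differed by 1.79 and 1.83 with probes above background on 1 and 3 untreated arrays and by 0.52 with its brightest probe, and TAP2 and ERAP2 differed by −0.92 and −0.73.

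Of 33 interferon-stimulated genes 14 were higher (42.4%) and 13 lower (39.4%), with a median of 0.08. Over all genes the shares were 35.3% and 39.4%, so the list lay near them. GBP2, a guanylate-binding protein, ranged from 8.84 to 9.94 (median 9.12) without and from 11.84 to 12.56 (median 12.33) with gefitinib, a difference of 3.06 ± 0.13 (adjusted p = 2.38e-10), whereas its relative GBP1 differed by −1.64 ± 0.08. SAMD9L and SAMD9 were higher by 2.25 and 1.78, and the chemokine CXCL11 and the deubiquitinase USP18 differed by −2.55 and −1.81. A pair of promoters that both hold the interferon response letters (GAAA, any pair of bases, GAAA) is printed here. Their genes moved in opposite directions.
SAMD9: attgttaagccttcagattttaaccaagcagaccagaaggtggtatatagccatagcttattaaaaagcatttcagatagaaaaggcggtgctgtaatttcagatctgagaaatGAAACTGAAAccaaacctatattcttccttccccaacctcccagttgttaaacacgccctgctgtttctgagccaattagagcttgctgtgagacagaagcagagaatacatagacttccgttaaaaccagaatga
GBP1: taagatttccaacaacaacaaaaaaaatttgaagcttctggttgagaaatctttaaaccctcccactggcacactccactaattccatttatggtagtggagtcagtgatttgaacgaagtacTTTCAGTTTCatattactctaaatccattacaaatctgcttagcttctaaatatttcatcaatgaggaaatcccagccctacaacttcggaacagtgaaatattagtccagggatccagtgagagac
They lie at chr7:93117980-93118229 (SAMD9, minus strand) and chr1:89065209-89065458 (GBP1, minus strand). The letters were found in 15 of 26 promoters of the list and in 3.07% of all promoters. In the other lists, the CHR letters TTTGAA were found in 48.3% of mitosis promoters against 13.6% of all, the E2F letters TTGGCGC in 22.6% of DNA replication promoters against 2.63%, and the FOXO letters GTAAACA in 8.7% of FOXO target promoters against 2.98%. The AP-1 letters were found in none of 19 promoters of ERK targets.

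The genes of Wnt signalling did not move as a block, although AXIN2 was among the largest changes of all. CTNNB1, which encodes β-catenin, ranged from 12.03 to 14.98 (median 12.53) without and from 12.23 to 14.51 (median 12.54) with gefitinib and was not called (−0.01, 95% interval −0.22 to 0.21, adjusted p = 0.962). LEF1, a transcription factor that β-catenin binds, was higher by 0.34 ± 0.07 with overlapping groups. Of 18 tested Wnt targets 8 were higher (44.4%) and 6 lower (33.3%), against 35.3% and 39.4% of all genes. Their median of 0.22 ranged down to 0.05 under other filters. EPHB3, an ephrin receptor, FGF18, a growth factor, and RNF43, a ubiquitin ligase that removes Frizzled receptors, were higher by 1.63, 1.27 and 1.03, while BMP4, ZNRF3 (the relative of RNF43) and EPHB2 differed by −1.14, −0.89 and −0.84.

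Among 39 Wnt components 16 were higher (41.0%) and 12 lower (30.8%), against 35.3% and 39.4% of all genes. Their median was 0.07 against −0.04 over all genes. The ligand WNT4 ranged from 6.32 to 7.01 (median 6.76) without and from 8.68 to 9.13 (median 8.87) with gefitinib, a difference of 2.17 ± 0.06 (adjusted p = 1.62e-11). The factor TCF7L1 was higher by 2.09 ± 0.25 with overlapping groups and the ligand WNT10A by 1.39. WNT7A and WNT9A differed by −1.0 each, and GSK3B, the kinase that marks β-catenin for destruction, by −0.87 ± 0.06. Of the Frizzled receptors FZD7 was higher by 0.62 ± 0.05, FZD9 differed by −0.45 ± 0.07 and FZD5 was not called (0.10, 95% interval −0.01 to 0.21); other FZD5 probes gave −0.43 and −0.49. In PC9 the drug response of AXIN2 was 3.77, and those of FZD7 and FZD9 were −0.61 and −0.70.

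Of receptor kinases that can bypass EGFR, 8 of 20 were higher and 9 lower, with a median of −0.06 (0.11 when scaled to the 75th percentile). FGFR3, a fibroblast growth factor receptor, ranged from 8.47 to 9.41 (median 8.71) without and from 12.06 to 12.47 (median 12.25) with gefitinib, a difference of 3.35 ± 0.12 (adjusted p = 1.04e-10), and FGFR1 was higher by 3.10 ± 0.27. The insulin receptor INSR and IGF1R were higher by 1.18 and 0.80. MET, the hepatocyte growth factor receptor, ranged from 5.14 to 6.61 (median 5.48) without and from 3.62 to 4.97 (median 4.29) with gefitinib, a difference of −1.38 ± 0.15 (adjusted p = 1.60e-06); its other probes gave −1.28 and −1.04. FGFR4 differed by −1.13.

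Epithelial genes were higher in 17 of 27 and lower in 6 (median 0.24), where 35.3% of all genes were higher and 39.4% lower, the shares against which the other lists that follow can be read. MUC1, a membrane mucin, ELF3, an epithelial ETS factor, and KRT17 were higher by 2.58, 2.54 and 1.91, whereas PKP2, a desmosomal plaque protein, and KRT6A differed by −2.68 and −1.98. Of 15 mesenchymal genes 8 were higher, among them FN1 (1.94) and TGFBI (1.49), and 4 lower, among them VIM (−1.18), with a median of 0.21 (0.06 after normexp). Of 13 lung lineage genes 7 were higher and 3 lower (median 0.25, between 0.06 and 0.68 under other probes and filters), led by the surfactant protein genes SFTPD (1.15) and SFTPC (0.80, or −0.03 with its brightest probe). Integrins, laminins and their proteases were lower in 15 of 25 and higher in 7 (median −0.37, −0.17 after normexp), with ITGA6 (−1.86), SERPINE2 (−1.81) and MMP14 (1.58) at the ends. Clock and KLF genes were lower in 16 of 24 (median −0.38), led by CIART (−1.88), while among 22 YAP and TGF-β targets 9 were lower, 5 higher and 8 not called (median −0.16), a share of lower genes near that of all genes, with F3 at −1.62 and BAMBI, a pseudoreceptor, at 1.52.

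The late response was compared with the first hours in the same line. The difference between 14 to 24 h and 0 to 13 h was called in 4414 genes (33.3%), 2172 upward (16.4%) and 2242 downward (16.9%), and 2933 when scan day was a random block. The median absolute response was 0.27 in the early window and 0.42 in the late one. Glycolysis (19 of 27), sterol synthesis (17 of 28) and ATF4 targets (15 of 28) differed downward, against 16.9% of all genes, and no sterol synthesis or glycolysis gene differed upward. Of the mitosis genes 15 of 34 differed downward, and the median went from −0.20 to −0.61. ERK targets went the other way, with 9 of 27 differing upward and 0 downward, and the median from −0.74 to −0.36.

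Among single genes KRT1 went from 1.82 to 5.05 (difference 3.22 ± 0.63, adjusted p = 0.000277) and EEF1AKMT2, a lysine methyltransferase of elongation factor EEF1A, from 0.71 to 3.91 (3.20 ± 0.34). SLC51B, a subunit of the organic solute transporter, went from 0.89 to 3.56. BIRC3 went from −0.63 to −3.56 (−2.92 ± 0.26, adjusted p = 5.97e-08). CIB3 and HRG, histidine-rich glycoprotein, were not called early (−0.23 and 0.48) and stood at −3.52 and −2.64 late. AGMO, ADAM21 and PDE1A, a phosphodiesterase, differed between the windows by −3.31, −3.00 and −2.86. CCDC180, NEK3 and RTN4RL1 differed by 3.27, 2.79 and 2.62, with the probe limits given above; the values of NEK3 and ADAM21 rest on a late course below background. TNFSF10 and BMF already stood at 4.16 and 4.02 in the early window.

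Within the late window the response still changed with time. A slope was called in 1863 genes (14.1%), 1065 upward (8.03%) and 798 downward (6.02%), and in 1232, 1229 and 1201 when the 14, 15 or 24 h pair was left out, or 727 without both 14 and 15 h. Scan days ran in the reverse order of the hours, the later hours being scanned earlier, so slope and scan day cannot be told apart. In 15 of 35 DNA replication genes the slope was upward and in 0 downward, while ATF4 targets had 10 of 28 downward, and Wnt components 11 of 39 upward. CIB3 changed by −0.32 ± 0.03 per hour (adjusted p = 0.000141), HRG by −0.29 ± 0.02, GRK4, a kinase of G protein-coupled receptors, by −0.25 ± 0.03 and KCTD16, an auxiliary subunit of GABA-B receptors, by −0.24 ± 0.04. KRT1 (0.36 ± 0.09), IGFBP5 (0.32 ± 0.07), ACOX2 (0.26 ± 0.02) and HPR (0.24 ± 0.07) changed upward; the calls for KRT1 and HPR were lost without the 15 h pair, and that for HPR also without any 1 of the 16 and 18 to 23 h pairs. IGFBP5, below background on all untreated late arrays, binds insulin-like growth factors, ACOX2 is a peroxisomal oxidase and HPR is a haptoglobin relative.

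The same drug contrast was measured a second time in cells that also received EGF, on arrays that share none with the comparison above. There 10374 genes were called (78.3%), 37.9% higher and 40.4% lower, and 9117 genes were called in both settings, 92.1% of the calls without and 87.9% of the calls with EGF. Of these 9101 had the same direction and 16 the opposite one. Across genes the correlation of the responses was 0.971, a description over genes that are not independent. The largest changes recurred: TNFSF10 differed by 5.77, AXIN2 by 5.23, BMF by 4.93, CSF2 by −4.70 and CD274 by −4.33 with EGF.

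A difference between the 2 settings was called in 1391 genes (10.5%), 5.39% upward and 5.1% downward, and by at least 2-fold in 16 (0.121%) and 22 (0.166%). With every second hour 36 genes were called. MMP1, an interstitial collagenase, differed by −1.48 without and −3.39 with EGF (difference −1.91 ± 0.13, adjusted p = 9.83e-06), EGR3, an early growth response factor, by −1.47 and −2.88, HSD3B1 by −3.25 and −4.68, and DCLK1, a doublecortin-like kinase, by −0.94 and −2.94. CXCL10, an interferon-induced chemokine, differed by −1.52 without EGF and was not called with it (−0.13; difference 1.39 ± 0.24). TPPP3, a tubulin-binding protein, was higher by 3.64 and 4.97, FAM81B by 1.30 and 2.66, and PLEKHS1, below background under EGF alone, by at least 3.33-fold with EGF. Of the ERK targets 9 of 27 differed downward and 0 upward, and DUSP6 gave −1.60 without and −2.36 with EGF. Of the ATF4 targets 8 of 28 differed upward.

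The resistant line was last compared with its parent, each response being taken within its own slides. In PC9 8965 of 13252 genes were called (67.7%), with a median absolute difference of 0.63. Both lines called 7737 genes, 78.2% of the PC9M2 and 86.3% of the PC9 calls, 7448 in the same and 289 in the opposite direction. The response differed between the lines in 4678 genes (35.3%), 2326 upward (17.6%) and 2352 downward (17.7%). As for the ERK targets, the DNA replication genes had smaller decreases in PC9M2: 29 of 35 differed upward and 0 downward, with medians of −0.64 and −1.73. Ribosome biogenesis had 23 of 36 upward and 2 downward. Sterol synthesis differed the other way: 23 of 28 differed downward and 1 upward, with medians of −1.08 and −0.50. For glycolysis the medians were −1.25 and −1.25, with 4 members differing upward and 8 downward.

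RADIL, an effector of RAP1, was above background on no untreated PC9 array and was at least 140-fold higher with gefitinib there, whereas in PC9M2 its level went from 2.28, above background on 1 array, to 4.87, above background on 10 (fitted difference between the lines −5.66, adjusted p = 1.02e-06). CYP17A1, a steroid hydroxylase, and NKAIN4, a partner of the sodium pump, were below background in untreated PC9 and at least 14.1-fold and 14.7-fold higher with gefitinib. In PC9M2 neither was called; CYP17A1 was above background on 1 untreated and 2 gefitinib arrays, so its response there was barely measured, and NKAIN4 on 7 and 9. PRODH, proline dehydrogenase, was higher by 4.78 in PC9, where 1 untreated array measured it, and was not called in PC9M2 (0.45), where it was above background on 3 and 6 arrays. SLC6A2, the noradrenaline transporter, was at least 3.26-fold higher in PC9M2 and was above background on no late PC9 array of either course. BIRC3 gave −3.56 in PC9M2 and −2.43 in PC9 (difference −1.13 ± 0.20), whereas no difference between the lines was called for TNFSF10 (5.13 and 4.96, difference 0.17 ± 0.10) and PIK3IP1 (3.58 and 3.39, 0.20 ± 0.27). NEK3, below background without the drug in both lines, was at least 24.5-fold higher in PC9M2 and at least 23.3-fold higher in PC9, bounds that do not give a difference. The lines were hybridized on separate slides and scan days, so line and slide cannot be told apart. With every second hour 1394 genes differed between the lines.

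**Figure D5:**
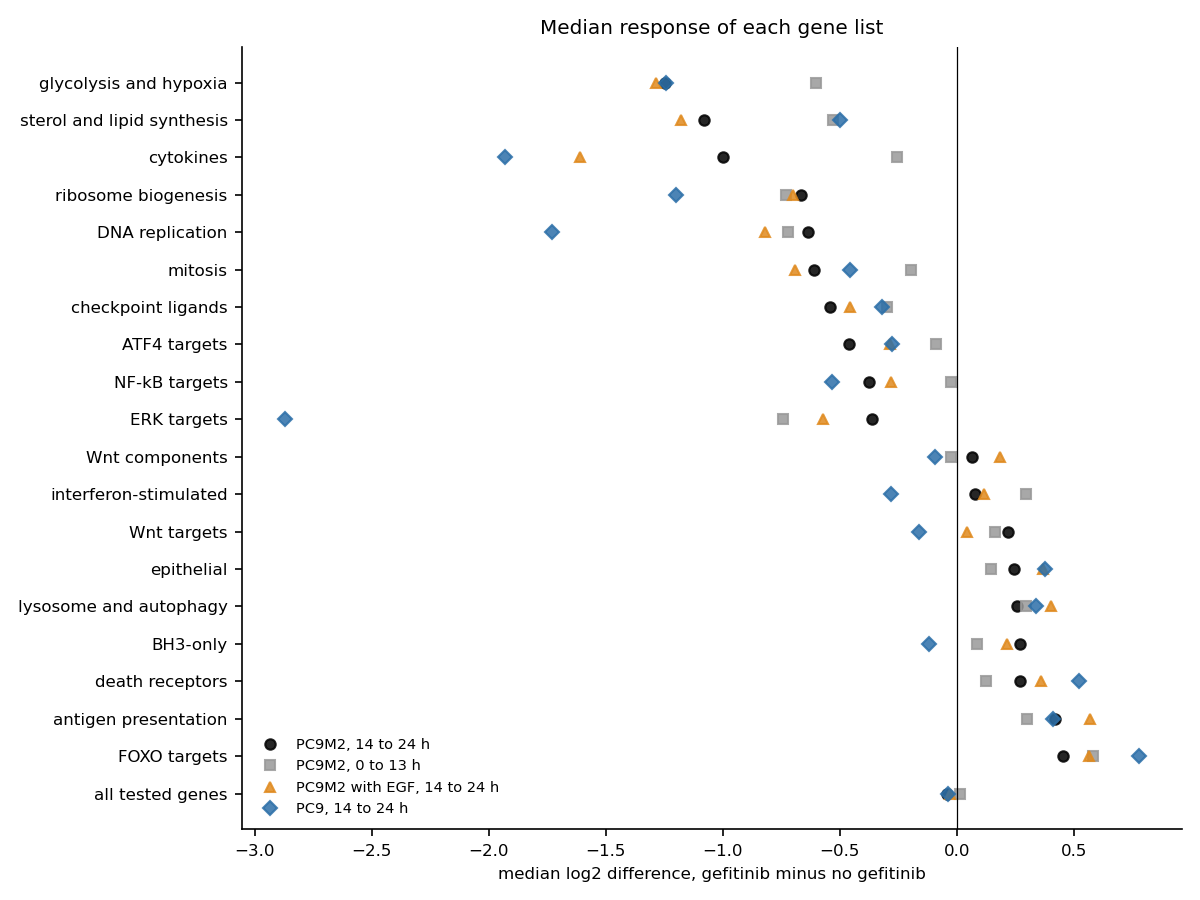
Median log2 difference, gefitinib minus no gefitinib, of each gene list (horizontal axis) in PC9M2 at 14 to 24 h (black circles) and 0 to 13 h (grey squares), PC9M2 with EGF at 14 to 24 h (orange triangles) and PC9 at 14 to 24 h (blue diamonds), in the order of the late PC9M2 median with all tested genes at the bottom. ERK targets (−0.36 against −2.87) and DNA replication (−0.64 against −1.73) lie far from PC9, glycolysis coincides with it at −1.25, and sterol synthesis is lower in PC9M2.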

How the data were processed

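The authors scanned single-colour Agilent whole-genome arrays with Feature Extraction and, per the methods, quantile-normalized them. The deposited scanner files give probe intensity already background-subtracted by that software, and the deposited series table gives normalized intensity. Here gProcessedSignal was quantile-normalized over all 208 arrays, raised to at least 1, and expressed as log2; outlier spots were dropped and spots of a probe averaged. Own values differed from the deposited table by at most 0.00201 (log2). Of 41000 probes 24794 were named through RefSeq accessions (16961 genes), and each gene took its most variable probe. A gene was tested if its probe passed the scanner's background flag on 13 or more arrays out of 26 in any course, which left out 3704. Differences within an hour, which are also within a slide, were tested two-sided with limma 3.58.1 in R 4.3.3, with Benjamini-Hochberg adjustment; at least 8 of 11 pairs were required, so a dropped outlier spot removes that pair. Same-hour arrays of both courses deviated together (correlation 0.0869 to 0.84, median 0.44), and the methods pair courses by time. Members and gene lists were chosen with earlier results of these data known. Named genes were the 14 largest changes in each direction with the same sign at all 11 hours and the background flag passed on 9 or more arrays of the higher group, up to 4 called per list and direction, 8 fixed Wnt and receptor genes, and the 6 or 4 largest per direction in the other comparisons. The code was tested on simulated data. Alternatives were other scalings, background corrections, probe choices, filters, floors, blocks and left-out hours. Promoters are RefSeq's. The number of arrays limits the precision. The normexp alternative used the median signals, since these files hold no mean signal. Some genes are not reported here.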

Additional observations from a re-analysis of the deposited data

Results flagged for a closer look

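A difference between groups under the same drug contrast, found by a test of the difference itself, was called for each of the following. Between the late and the early window 4414 genes differed, with CCDC180 (3.27), KRT1 (3.22), EEF1AKMT2 (3.20), NEK3 (2.79), SLC51B (2.67) and RTN4RL1 (2.62) upward. AGMO (−3.31), CIB3 (−3.29), HRG (−3.12), ADAM21 (−3.00), BIRC3 (−2.92) and PDE1A (−2.86) differed downward.

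Between the response with and without EGF 1391 genes differed. PLEKHS1 (1.41), CXCL10 (1.39), FAM81B (1.35) and TPPP3 (1.33) differed upward, and DCLK1 (−1.99), MMP1 (−1.91), HSD3B1 (−1.42) and EGR3 (−1.41) downward.

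Between PC9M2 and PC9 4678 genes differed. DUSP6 (6.23), ETV5 (5.67), EGR1 (5.08) and SLC6A2 (4.35) differed upward, and RADIL (−5.66), CYP17A1 (−4.89), NKAIN4 (−4.73) and PRODH (−4.33) downward. All values are log2 differences of responses with 11 late pairs per response. For NEK3, ADAM21, PLEKHS1, ETV5, RADIL, CYP17A1, NKAIN4 and SLC6A2 at least 1 side of a contrast was above background on none of its late arrays, so these fitted values depend on values below background.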

How the results depend on the processing

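The late response (9898 genes called) gave between 8241 and 10151 calls under the alternatives that kept the fold and the adjustment. Without the pairing of hours (no replicate block) 8274 genes were called, and with scan day as a random block 9074. The methods' t-test called 10021 genes at an unadjusted p under 0.05 and 9770 after Benjamini-Hochberg adjustment. With a 2-fold minimum the counts were 2286 for the late response, 2963 under EGF, 38 for the EGF modification and 1321 between the lines. Every second hour left 36 genes for the EGF modification and 1394 between the lines. The late minus early count was 2933 with scan day as a random block, and the slope count was 727 without the 14 and 15 h pairs, an alternative chosen after seeing the data. Leaving out 1 hour at a time gave 9617 to 9945 calls for the late response, 10125 to 10407 under EGF and 1201 (without 24 h) to 2061 for the slope. With each gene's brightest probe, CCDC180 (−0.26, and −0.53 for late minus early), RPS26 (0.24), MCL1 (0.0722) and SFTPC (−0.0302) reversed; with the mean of all probes, FADS2 (−0.24) and FZD5 (−0.27) did. The median of the death receptor list, 0.27 as reported, was −0.0117 when filtered within the 22 arrays and 0 with a floor of 16. Of 6659 values of named genes under an alternative, 6552 kept their direction and side of the threshold, and 100 lost the call. Scaling to the 75th percentile moved the median difference over all genes from −0.0416 to 0.0161. The causes were not tested.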
